A study of Mus musculus with 2 samples.

Results

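The genes described here are 6 ATP-binding cassette (ABC) transporters of the blood-labyrinth barrier, Abcb1a, Abcb1b, Abcg2, Abcc1, Abcc4 and Abca1. They were taken as a named set and matched by Ensembl identifier, so all 6 of the 6 were found among the 27040 identifiers that both gene lists of the series hold. Cells of the mouse stria vascularis, the capillary-rich epithelium that lines the side wall of the cochlea, were profiled by 10x Chromium 3′ single-cell RNA-seq in 2 libraries, and the transporters were compared among endothelial, mural and intermediate barcodes of these libraries. A barcode was endothelial when at least 4 of Pecam1, Cdh5, Cldn5, Flt1, Egfl7 and Ramp2 had a unique molecular identifier (UMI, 1 tagged RNA molecule). It was mural, that is pericyte or smooth muscle, when at least 3 of Pdgfrb, Rgs5, Vtn and Notch3 had a UMI and at most 1 endothelial gene did. It was intermediate, the melanocyte-like cell between the strial epithelial layers, when Dct, Tyr and Kcnj10 all had a UMI.

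The Tie2-GFP library came from untreated reporter mice aged 1 to 3 months in which GFP is driven by the promoter of Tek, the endothelial angiopoietin receptor, and which carry no other allele named in the labels. The NG2-DsRed library came from untreated mice of the same age range in which DsRed is driven by the promoter of Cspg4, the proteoglycan NG2 of pericytes. Each library pooled 20 cochleae of 10 mice and the labels describe a sort of live cells by their reporter, a step that the methods make conditional on a need for enrichment. Each line was therefore measured once, and no value below has a biological replicate. Line, batch and software version differ together between the libraries and cannot be told apart.

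The Tie2-GFP library held 633 barcodes and 5432289 UMIs, and the NG2-DsRed library held 201 barcodes and 1232599 UMIs, with 0 barcodes shared. In the Tie2-GFP library 379 barcodes were endothelial (median 7431 UMIs), 87 intermediate (15955 UMIs), 4 mural, which are too few to describe further, and 163 of no class, whose median mitochondrial share was 75.6%. The NG2-DsRed library held 97 mural (3027 UMIs), 58 endothelial (9146 UMIs) and 23 intermediate barcodes (10383 UMIs), 2 that met more than 1 rule and 21 of no class. The labels call the cells of the first library endothelial, and 59.9% of all its deposited barcodes met the endothelial rule. Within the quality limits of the study 399 of its barcodes remained, of which 368 were endothelial. Of 7 endothelial genes outside the rule, all 7 were 2-fold higher in endothelial than in intermediate barcodes of either library. Of the same genes 6 were 2-fold higher in endothelial than in mural barcodes. Over all genes with at least 50 UMIs, 28.6% (Tie2-GFP) and 29.7% (NG2-DsRed) were 2-fold higher than in intermediate barcodes. Against mural barcodes 15.5% were. The 7 genes were Tek, Kdr, Cd93, Slc2a1, Slco1a4, Ptprb and Esam, picked after the data were seen. Their direction thus describes the classes and does not test them. The summed level of the 7 genes was 5618 CPM (UMIs of a gene per 1000000 UMIs of the group) in Tie2-GFP and 3991 CPM in NG2-DsRed endothelial barcodes. In mural barcodes it was 548 CPM, of which Esam, the exception, gave 469 CPM. Of the 58 endothelial barcodes of the NG2-DsRed library, 32 also had 3 or 4 mural genes, against 26 of 379 in the Tie2-GFP library. Some NG2-DsRed levels, ratios and co-detection of the transporters are therefore given also for the 16 with at most 1. All other NG2-DsRed endothelial values, among them those of the further gene lists, are over the 58.

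ABC transporters use ATP to move substrates across membranes, and in the capillaries of the brain those of the B, C and G subfamilies face the blood and return drugs and metabolites to it. P-glycoprotein, encoded in rodents by the paralogs Abcb1a and Abcb1b, and the breast cancer resistance protein, encoded by Abcg2, are the classic drug efflux pumps of blood-tissue barriers. Abcc1 and Abcc4 encode multidrug resistance-associated proteins that export conjugated and cyclic-nucleotide substrates, and Abca1 loads cholesterol and phospholipid onto apolipoproteins.

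On GRCm38 (mm10) all 6 are protein-coding genes of the GENCODE M21 annotation. Abcb1a spans chr5:8660077-8748575 on the plus strand and Abcb1b chr5:8798147-8866315 on the same strand, 49.6 kb downstream. Abcg2 lies at chr6:58584523-58695676 (plus), Abcc1 at chr16:14361558-14475737 (plus), Abcc4 at chr14:118482692-118706219 (minus) and Abca1 at chr4:53030787-53159895 (minus). Counts in 3′ libraries come from transcript ends and do not place a start site, so the promoters are shown for identity alone. RefSeq (GRCm38.p6) promoters of 250 bases before to 50 after the start were at hand for 5 of the 6 genes, without Abcc1. Those shown are of the neighbouring paralogs Abcb1a and Abcb1b, whose endothelial levels differed widely, and of Abca1. Over all deposited barcodes, Abca1 was the only member with a higher level in intermediate than in endothelial ones of a library. The sequences read 5′ to 3′ on the gene's strand as follows, with matches of the searched motifs in capitals.
Abcb1a, chr5:8566841-8567140: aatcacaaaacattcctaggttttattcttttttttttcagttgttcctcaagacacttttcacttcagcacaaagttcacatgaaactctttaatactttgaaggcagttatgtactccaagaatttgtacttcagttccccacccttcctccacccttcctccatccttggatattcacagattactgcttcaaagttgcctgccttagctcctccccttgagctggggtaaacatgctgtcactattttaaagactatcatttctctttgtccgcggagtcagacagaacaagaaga
Abcb1b, chr5:8797897-8798196: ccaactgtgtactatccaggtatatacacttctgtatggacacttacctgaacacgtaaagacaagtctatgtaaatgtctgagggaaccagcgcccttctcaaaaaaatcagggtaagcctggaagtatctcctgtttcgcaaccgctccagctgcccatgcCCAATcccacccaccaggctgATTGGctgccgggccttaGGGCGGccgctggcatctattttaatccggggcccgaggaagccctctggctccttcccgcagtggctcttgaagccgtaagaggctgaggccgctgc
Abca1, chr4:53159846-53160145 (minus strand): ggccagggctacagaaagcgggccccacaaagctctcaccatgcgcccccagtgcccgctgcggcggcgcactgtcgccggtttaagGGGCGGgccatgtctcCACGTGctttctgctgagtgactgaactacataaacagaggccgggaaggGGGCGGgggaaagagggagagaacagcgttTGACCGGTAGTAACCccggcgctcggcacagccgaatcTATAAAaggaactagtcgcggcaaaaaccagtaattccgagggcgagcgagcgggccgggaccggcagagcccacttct

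The RefSeq start of Abcb1a lies 92986 bases upstream of the GENCODE start of the gene, whereas the starts of Abcb1b and Abca1 are the same in both annotations. The motifs were chosen after the sequences were seen and were searched on both strands. They were the TATA box in the letters TATAAA, the GC box as GGGCGG, the CCAAT box in those letters, the dioxin response core as GCGTG, the E-box with the sequence CACGTG, and a single spelling of the DR4 element of liver X receptors, a pair of direct repeats with 4 free bases between them. No match overlapped another in the windows shown. The Abcb1a window, with a GC content of 40.3% beside a median of 52.7% over 32851 promoters, held none of them. The Abcb1b window held a GC box and 2 CCAAT motifs. The Abca1 window held 2 GC boxes, an E-box, a TATA box whose first base is 29 bases before the start, and the DR4 form 67 bases before it. Of all promoters 0.0487% held this DR4 form, 13.6% the TATA box, 35.7% the GC box, 37.4% CCAAT, 32.4% GCGTG and 7.15% the E-box.

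Abcb1a and Abcg2 were the most abundant of the 6 in endothelial barcodes and were nearly absent from the intermediate barcodes. In the Tie2-GFP library the 379 endothelial barcodes held 0 to 55 UMIs of Abcb1a each, with a median of 8, and 39.8% of them held 10 or more. Abcg2 ran from 0 to 44 UMIs with the same median of 8. In the 58 endothelial barcodes of the NG2-DsRed library Abcb1a ran from 0 to 23 UMIs with a median of 5, and Abcg2 from 0 to 29, again with a median of 5. By contrast, no mural or intermediate barcode of either library held more than 1 UMI of Abcb1a, and none held more than 2 of Abcg2.

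**Figure D1:**
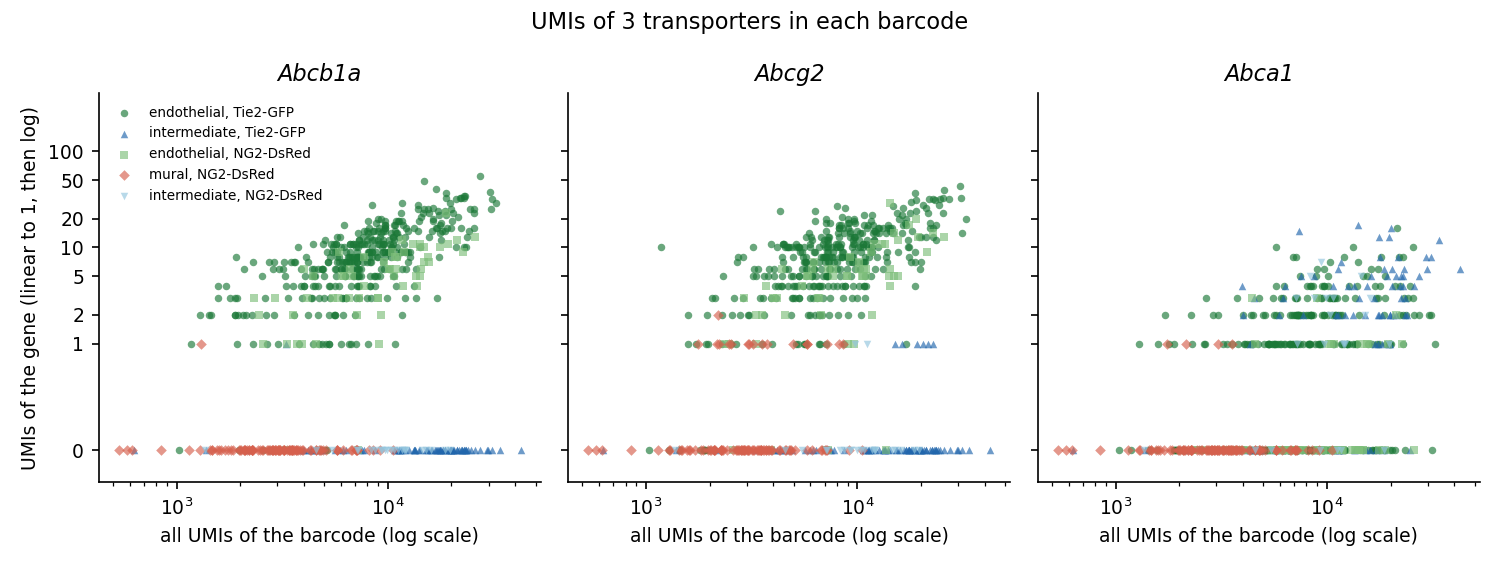
Each point is 1 barcode, with all its UMIs on the x axis (log scale) and its UMIs of Abcb1a, Abcg2 or Abca1 on the y axis (linear to 1, then log); colours and shapes give class and library. Endothelial barcodes rise with depth to 55 UMIs of Abcb1a and 44 of Abcg2, mural and intermediate barcodes stay at 0 to 2, and for Abca1 intermediate barcodes reach 17.

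Summed over the class, Abcb1a stood at 1109 CPM (95% exact Poisson interval 1074 to 1145) in Tie2-GFP endothelial barcodes and at 589 CPM (527 to 655) in NG2-DsRed ones, ranks 145 of 15331 and 216 of 12266 genes with a UMI. Intervals here and below cover counting error only. A UMI stands for 1 captured molecule, so these levels were not divided by gene length. The 87 Tie2-GFP intermediate barcodes held 1 UMI of Abcb1a (0.761 CPM), the 23 NG2-DsRed ones 0, and the 97 mural barcodes 1 (3.01 CPM). That single mural UMI was in a barcode with 1 endothelial gene, and the 84 mural barcodes with no endothelial gene held 0.

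Abcg2 stood at 1064 CPM (1029 to 1099) in Tie2-GFP and 613 CPM (551 to 681) in NG2-DsRed endothelial barcodes, close to Abcb1a on the same scale. Of the UMIs of these 2 genes, Abcg2 made up 49.0% (47.8 to 50.1) in the Tie2-GFP and 51.0% (47.2 to 54.8) in the NG2-DsRed endothelial barcodes. Intermediate barcodes held 6 UMIs of Abcg2 in the Tie2-GFP library (4.57 CPM) and 2 in the NG2-DsRed library (8.16 CPM). Mural barcodes held 18, at 54.2 CPM (32.1 to 85.6), spread over 17 of the 97 barcodes with at most 2 in any. Among these mural barcodes Abcg2 made up 94.7% of the UMIs of the pair (exact interval 74.0 to 99.9; 18 UMIs of Abcg2 and 1 of Abcb1a), an interval that lies above that of the endothelial barcodes of the same library.

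Of the 18 Abcg2 UMIs in mural barcodes, 16 were in the 84 barcodes with no endothelial gene. Those 84 also held 271866 of the 332347 UMIs of the class. The level in them over that in mural barcodes with 1 endothelial gene was 1.78, and the interval (0.418 to 16.0) includes no difference. Contractile mural barcodes, with at least 2 of Acta2, Tagln, Myh11 and Pln, held 9 Abcg2 UMIs at 51.0 CPM (23.3 to 96.9). The other mural barcodes held 9 at 57.7 CPM (26.4 to 109), and these intervals overlap. The rule caps the 6 rule genes in mural barcodes, so other endothelial genes were set beside Abcg2 for carried-over RNA. In the mural barcodes Cd93, an endothelial C-type lectin receptor, had 9 UMIs, Slc2a1, the GLUT1 glucose transporter, had 11, Slco1a4, an organic anion transporter, and Ptprb, an endothelial phosphatase, had 3 each, and Tek and Kdr, the receptors of angiopoietin and VEGF, had 0. The level in endothelial over mural barcodes of the library was 11.6-fold for Cd93 (5.96 to 25.7) and 90.4-fold for Slco1a4 (30.8 to 440). These 7 genes, with Esam at 469 CPM in mural barcodes, were picked after the data were seen, and the part of free RNA in the Abcg2 value was not tested. Cd93 is also among the 3 genes nearest in level to Abcg2, and Slco1a4 among the 3 nearest to Abcb1a. These mural barcodes were among the groups compared, so ratios like those of the 2 pumps follow from that nearness.

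**Figure D2:**
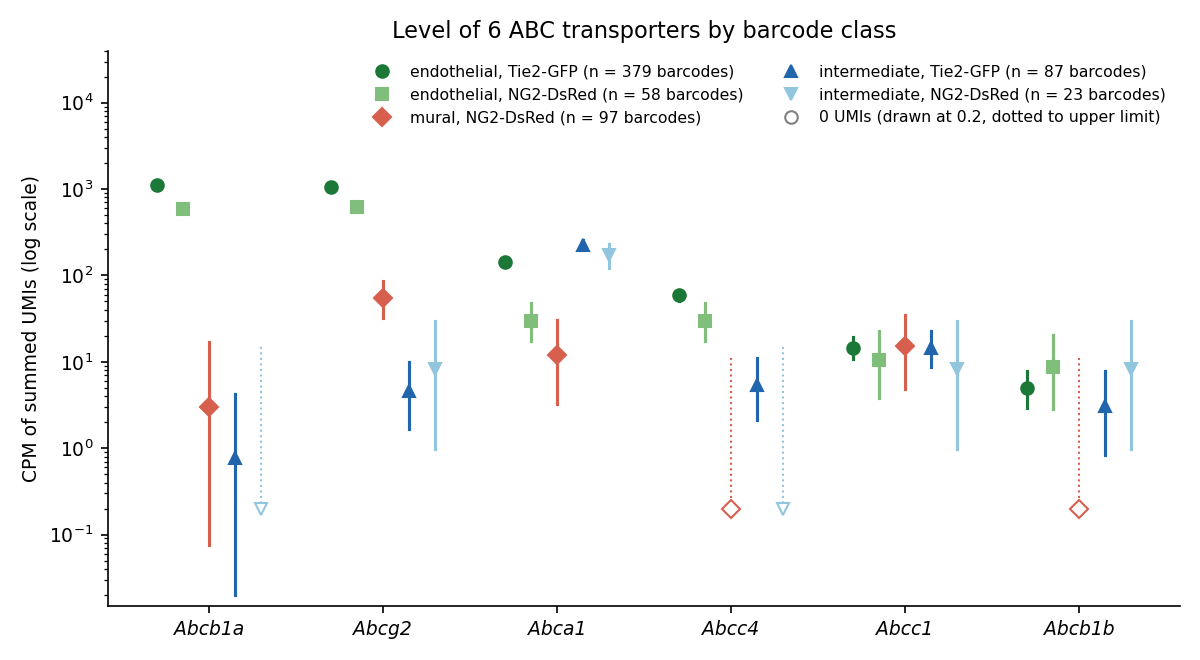
CPM of summed UMIs (y axis, log scale) of the 6 transporters in 5 class-by-library groups, with exact 95% Poisson intervals as lines; open symbols mark groups with 0 UMIs, with a dotted line to the upper limit. Abcb1a and Abcg2 are at 589 to 1109 CPM in endothelial barcodes and at most 54.2 CPM elsewhere, while Abca1 is highest in Tie2-GFP intermediate barcodes, at 228 CPM.

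Abcc4, the exporter of cyclic nucleotides and of conjugated drugs, was lower but ran along the same line. In Tie2-GFP endothelial barcodes it ranged from 0 to 5 UMIs with a median of 0, and summed to 58.8 CPM (51.0 to 67.5) in 132 of 379 barcodes. In NG2-DsRed endothelial barcodes it stood at 29.8 CPM (17.3 to 47.7), from 17 UMIs. Tie2-GFP intermediate barcodes held 7 UMIs (5.33 CPM), and neither the mural nor the NG2-DsRed intermediate barcodes held any. With 332347 UMIs in the mural barcodes, 0 counts allow up to 9.03 CPM (3 counts).

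Abcc1, a broadly used exporter of glutathione conjugates, was low everywhere and showed no class with a separate level. It stood at 14.6 CPM (10.8 to 19.2) in Tie2-GFP endothelial, 14.5 (8.71 to 22.6) in Tie2-GFP intermediate, 15.0 (4.88 to 35.1) in mural, 10.5 (3.86 to 22.9) in NG2-DsRed endothelial and 8.16 (0.989 to 29.5) in NG2-DsRed intermediate barcodes, all of whose intervals overlap. Abcb1b, the second rodent P-glycoprotein, had 17 UMIs in 12 of 379 Tie2-GFP endothelial barcodes (4.95 CPM, 2.88 to 7.93) and 5 in the NG2-DsRed ones, 4 of them in 1 barcode. The intermediate barcodes held 4 and 2 UMIs of it and the mural barcodes 0, so its endothelial and intermediate levels were not separable at this depth. Of the UMIs given to the Abcb1a and Abcb1b pair in Tie2-GFP endothelial barcodes, 99.6% (99.3 to 99.7) were Abcb1a. The 2 paralogs are near identical in parts, so reads that fit both may have been dropped in counting, and their split is uncertain to that extent.

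Abca1, the cholesterol exporter, had the reverse order over all deposited barcodes, with more in intermediate than in endothelial ones. Within the study's limits, which only 6 of the 87 Tie2-GFP intermediate barcodes met, the order in that library turned around, as given below. Tie2-GFP intermediate barcodes held 0 to 17 UMIs each, with a median of 2, and endothelial ones 0 to 16, with a median of 1, so single barcodes overlap widely. The summed level was 228 CPM (202 to 255) in Tie2-GFP intermediate and 171 CPM (124 to 232) in NG2-DsRed intermediate barcodes. It was 144 CPM (132 to 157) in Tie2-GFP endothelial, 29.8 CPM (17.3 to 47.7) in NG2-DsRed endothelial and 12.0 CPM (3.28 to 30.8) in mural barcodes. The order of the levels was thus Tie2-GFP intermediate, NG2-DsRed intermediate, Tie2-GFP endothelial, NG2-DsRed endothelial and mural, in which the intervals of the first and second, the second and the third, and the fourth and the fifth overlap.

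Within a library, where batch does not enter, the classes were set against each other as ratios of CPM with exact conditional intervals. With 1 library per line there is no test, and a gene was counted as 2-fold higher or lower among those with at least 50 UMIs over both classes. Between endothelial and mural barcodes of the NG2-DsRed library 15.5% of 3328 genes were 2-fold higher and 13.2% were 2-fold lower in endothelial barcodes. Only 2 of the 6 transporters, Abcb1a and Abcg2, reached 50 UMIs, a minimum that a gene high in either class passes more readily, and both were among the 2-fold higher. Abcb1a was 196-fold higher (34.9 to 7749), an estimate that rests on 1 mural UMI, and Abcg2 11.3-fold higher (7.06 to 19.3). Abcc4 was at least 3.30-fold higher against the floor of 3 counts over the mural barcodes, with an exact interval that begins at 2.40. The interval of Abca1, 2.47-fold (0.807 to 10.1), and that of Abcc1, 0.699 (0.178 to 2.89), include no difference, and Abcb1b had 5 UMIs against 0.

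Between endothelial and intermediate barcodes of the Tie2-GFP library 28.6% of 8391 genes were 2-fold higher and 17.7% 2-fold lower in endothelial barcodes. Of 5 transporters with enough UMIs 3 were 2-fold higher and none was 2-fold lower. Abcb1a was 1457-fold higher (261 to 57567), from 3808 UMIs against 1, Abcg2 233-fold (107 to 635) and Abcc4 11.0-fold (5.26 to 27.8). Abcc1 stood at a ratio of 1.01 (0.583 to 1.81). Abca1 was 1.58-fold higher in intermediate barcodes (1.36 to 1.83).

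In the NG2-DsRed library the same comparison had 29.7% of 2904 genes 2-fold higher and 17.1% 2-fold lower in endothelial barcodes, and of 3 transporters 2 were higher and 1 lower. Abcb1a was at least 48.1-fold higher against the floor of 3 counts, with an exact interval that begins at 38.9, and Abcg2 75.1-fold (20.6 to 623). Abca1 was 5.76-fold higher in intermediate barcodes (3.21 to 10.8), and it was also 14.2-fold higher in them than in mural barcodes (5.17 to 54.7), on 42 against 4 UMIs. The 2 barcodes that met more than 1 rule were set aside, and with them in the intermediate class Abcb1a stood there at 37.8 CPM and Abcg2 at 53.0 CPM, so both values rest on leaving them out. With only the 16 endothelial barcodes of at most 1 mural gene, the log2 ratio of Abca1 to intermediate barcodes went from -2.53 to -1.71, and those to mural barcodes became 2.12 for Abca1, 3.89 for Abcg2 and 7.58 for Abcb1a. The estimated direction of Abca1 in the Tie2-GFP library was not the same with and without the mitochondrial limit, which left few intermediate barcodes. Intermediate barcodes had a median mitochondrial share of 9.31% there, and only 6 of the 87 were within the study's limits. In these Abca1 stood at 134 CPM, against 148 CPM in endothelial barcodes within the limits. No interval was computed for this ratio, so whether these 2 levels differ was not assessed. With those limits but no mitochondrial one, 84 intermediate barcodes remained at 226 CPM. The 23 intermediate barcodes of the NG2-DsRed library had a median mitochondrial share of 5.55%, and only 7 of them were within the study's limits. The order of Abca1 between endothelial and intermediate barcodes of that library did not turn around under these limits.

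The share of barcodes with a UMI followed the levels but also the depth, so it was computed as deposited and as the mean over all draws of 2000 UMIs from each barcode. Abcb1a was present in 97.9% of Tie2-GFP endothelial barcodes (exact interval 95.9 to 99.1) and 96.6% of NG2-DsRed ones (88.1 to 99.6), and at 2000 UMIs in 84.7% and 69.2%. Abcg2 was present in 96.6% (94.2 to 98.2) and 91.4% (81.0 to 97.1), and at 2000 UMIs in 84.3% and 67.2%. Mural barcodes had Abcg2 in 17.5% (10.6 to 26.6). At 2000 UMIs, drawn from the 78 mural barcodes of that depth or more, the share was 11.9%. Intermediate barcodes are deeper, with medians of 15955 and 10383 UMIs against 3027. They had Abcg2 in 6.90% and 8.70%, or in 0.751% and 1.75% at 2000 UMIs. Abca1 was present in 52.0% of Tie2-GFP endothelial and 73.6% of Tie2-GFP intermediate barcodes, and at equal depth in 23.0% and 32.5%. In the 16 NG2-DsRed endothelial barcodes with at most 1 mural gene the shares at 2000 UMIs were 73.0% for Abcb1a, 69.3% for Abcg2 and 6.57% for Abca1. The few Tie2-GFP endothelial barcodes without a pump were shallow, with a median of 3685 UMIs in the 8 without Abcb1a and of 1884 in the 13 without Abcg2, against 7669 and 7830 in the rest. In the NG2-DsRed library the 5 without Abcg2 had 2580 to 13711 UMIs with a median of 7109, against 9594 in the rest.

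**Figure D3:**
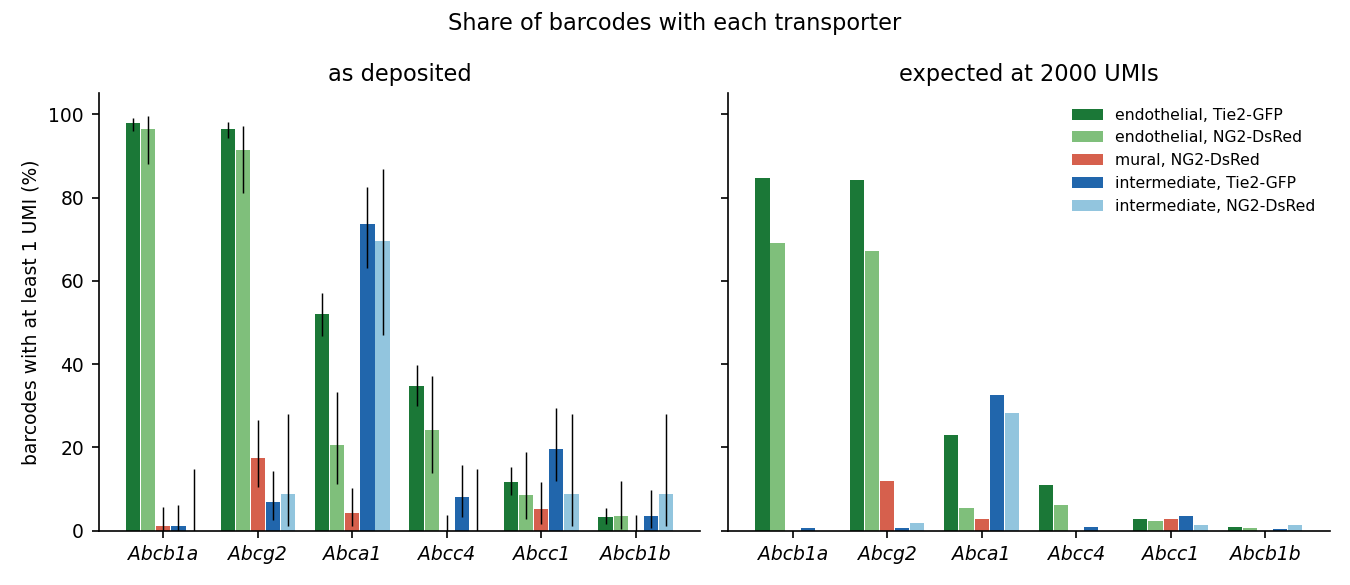
Share of barcodes with at least 1 UMI of each transporter (y axis, percent) in 5 class-by-library groups, as deposited with exact 95% intervals (left) and as the mean over draws of 2000 UMIs per barcode (right). Abcb1a and Abcg2 are in over 9 of 10 endothelial barcodes as deposited and in 67.2% to 84.7% at equal depth. Abca1 is more frequent in intermediate than in endothelial barcodes in both libraries and both panels. No quality limits are applied here, and only 6 of the 87 Tie2-GFP and 7 of the 23 NG2-DsRed intermediate barcodes are within those of the study.

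Most endothelial barcodes carried both pumps. Abcb1a and Abcg2 were found together in 361 of 379 Tie2-GFP endothelial barcodes, 95.3% (92.6 to 97.2), where the product of the single shares is 94.5%. In the NG2-DsRed library they were together in 52 of 58, 89.7% (78.8 to 96.1), beside a product of 88.2%, and in 14 of the 16 with at most 1 mural gene, 87.5% (61.7 to 98.4), equal to the product. At 2000 UMIs the shares were 72.4% beside 71.4%, and 48.9% beside 46.5%. Abca1 joined Abcg2 in 20.4% of Tie2-GFP endothelial barcodes at 2000 UMIs, beside a product of 19.4%, and Abcb1a in 19.9% beside 19.5%. Depth differs among barcodes even so, and these shares are descriptions of 1 library each.

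The 197 Tie2-GFP endothelial barcodes with a UMI of Abca1 had Abcg2 at 1143 CPM (1097 to 1190), and the 182 without had it at 947 CPM (897 to 1000), intervals that do not overlap. Abcb1a was at 1128 CPM (1082 to 1175) and 1081 CPM (1027 to 1137) in the same groups, which overlap. The barcodes with Abca1 were deeper, with a median of 8452 UMIs against 6778.5. Both Abca1 and Abcg2 also differed between the vessel groups described below, and the part of depth and vessel group was not tested. In the NG2-DsRed library only 12 endothelial barcodes held Abca1, with Abcg2 at 708 CPM (583 to 852) in them and 577 CPM (506 to 655) in the others. Counted per barcode, Tie2-GFP endothelial barcodes held a median of 3 of the 6 transporters. Of them 167 held 3, 104 held 2, 81 held 4, 16 held 5 and 9 held 1, while 2 held none and 0 held all 6. The median was 2 in NG2-DsRed endothelial barcodes (2.5 in the 16 with at most 1 mural gene), 1 in both groups of intermediate and 0 in mural barcodes, of which 74 of 97 held none.

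**Figure D4:**
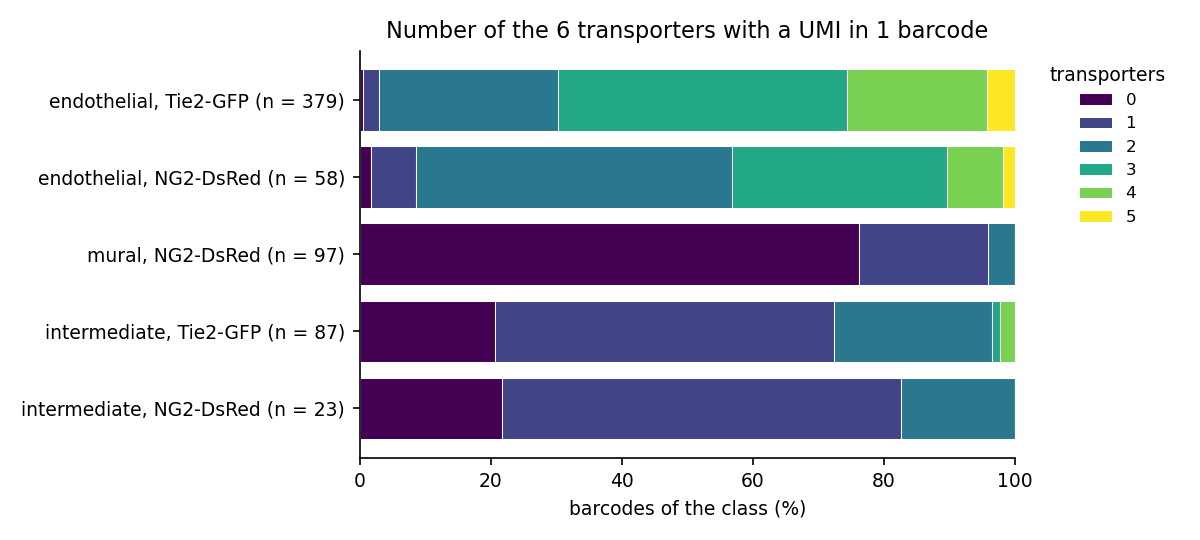
Share of barcodes (x axis, percent) of each class and library by how many of the 6 transporters had a UMI (colours, 0 to 5). Endothelial barcodes mostly hold 2 to 4, intermediate barcodes mostly 1, and 76.3% of mural barcodes hold none, at depths that differ between the classes.

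Endothelial barcodes were then grouped by vessel genes. Arterial-leaning barcodes had at least 2 of Gja4, Gja5, Bmx, Sema3g, Hey1 and Vegfc and at most 1 of the venous genes Nr2f2, Slc38a5, Vcam1, Ackr1, Vwf and Selp, and venous-leaning ones the reverse. These are ranges cut from counts of genes and not cell types: of the 96 arterial-leaning and 88 venous-leaning Tie2-GFP barcodes, 46 and 27 met the rule with 3 genes in place of 2. Abcb1a was level across them, at 1086 CPM (1020 to 1155) in arterial-leaning and 1160 CPM (1092 to 1231) in venous-leaning barcodes. Abcg2 was lower in arterial-leaning barcodes, at 905 CPM (845 to 968) against 1236 CPM (1166 to 1310), a ratio of 0.732 (0.669 to 0.800). The 168 barcodes with at most 1 gene of each list, those of neither zone, lay between them at 1082 CPM (1022 to 1145). They were the shallowest group, with a median of 6151 UMIs against 8162.5 in arterial-leaning and 9509.5 in venous-leaning barcodes. The 27 barcodes with at least 2 genes of each list, those of both zones, had a median of 14804 UMIs. Abcb1a was at 998 CPM (907 to 1094) in them. The groups count detected genes, and the part of depth in them was not tested.

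Abca1 differed most along this axis, with 47.1 CPM (34.2 to 63.2) in arterial-leaning and 214 CPM (185 to 245) in venous-leaning Tie2-GFP barcodes, which was 4.54-fold higher (3.26 to 6.44). Its UMIs ran from 0 to 4 in arterial-leaning barcodes, with a median of 0, and from 0 to 16 in venous-leaning ones, with a median of 2, so that single barcodes overlap. At 2000 UMIs it was present in 9.18% and 32.1% of them, in the same order as before. Barcodes of neither zone were at 186 CPM (162 to 214), close to the venous-leaning ones. In venous-leaning barcodes Abca1 was thus at the level of the Tie2-GFP intermediate barcodes (228 CPM, 202 to 255), with overlapping intervals. Summed mural rule genes were at 1221 CPM in arterial-leaning and 527 CPM in venous-leaning barcodes, and 4 haemoglobin and erythroid genes at 1771 and 10.7 CPM. Barcodes of neither zone, whose Abca1 was near that of the venous-leaning ones, had the mural genes at 352 CPM and the erythroid genes at 7424 CPM. The part of these in the difference was not tested.

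In the NG2-DsRed library, with 18 arterial-leaning and 10 venous-leaning endothelial barcodes, Abcg2 had the same direction, at 490 CPM (392 to 604) and 797 CPM (642 to 977), a ratio of 0.615 (0.453 to 0.833). Abcb1a was at 569 CPM (463 to 691) in arterial-leaning, 719 CPM (573 to 891) in venous-leaning and 493 CPM (373 to 641) in barcodes of neither zone, with an arterial over venous ratio of 0.791 whose interval (0.586 to 1.07) includes no difference. Abca1 had 5 and 4 UMIs there, 28.2 and 34.6 CPM, and the interval of the ratio (0.175 to 4.10) includes both no difference and most of that of the other library. These groups were too small to split further by mural genes. Mural rule genes summed to 5124 CPM in the arterial-leaning and 3378 CPM in the venous-leaning barcodes of this library. The arterial and venous lists summed to 617 and 698 CPM in its mural barcodes, against 394 and 541 CPM in its endothelial ones. All of the venous sum in mural barcodes was Nr2f2, as the other genes of that list had no UMI there. Ackr1 and Selp had no UMI in endothelial barcodes of either library, so the venous calls rest on the other genes. Gja5 of the arterial list had none in the NG2-DsRed endothelial barcodes. The part of mural RNA in the zone calls and in the Abcg2 difference was not tested. Abcc4 was at 49.3 CPM in arterial-leaning and 71.6 CPM in venous-leaning Tie2-GFP barcodes, a ratio of 0.688 whose interval (0.462 to 1.02) includes no difference.

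**Figure D5:**
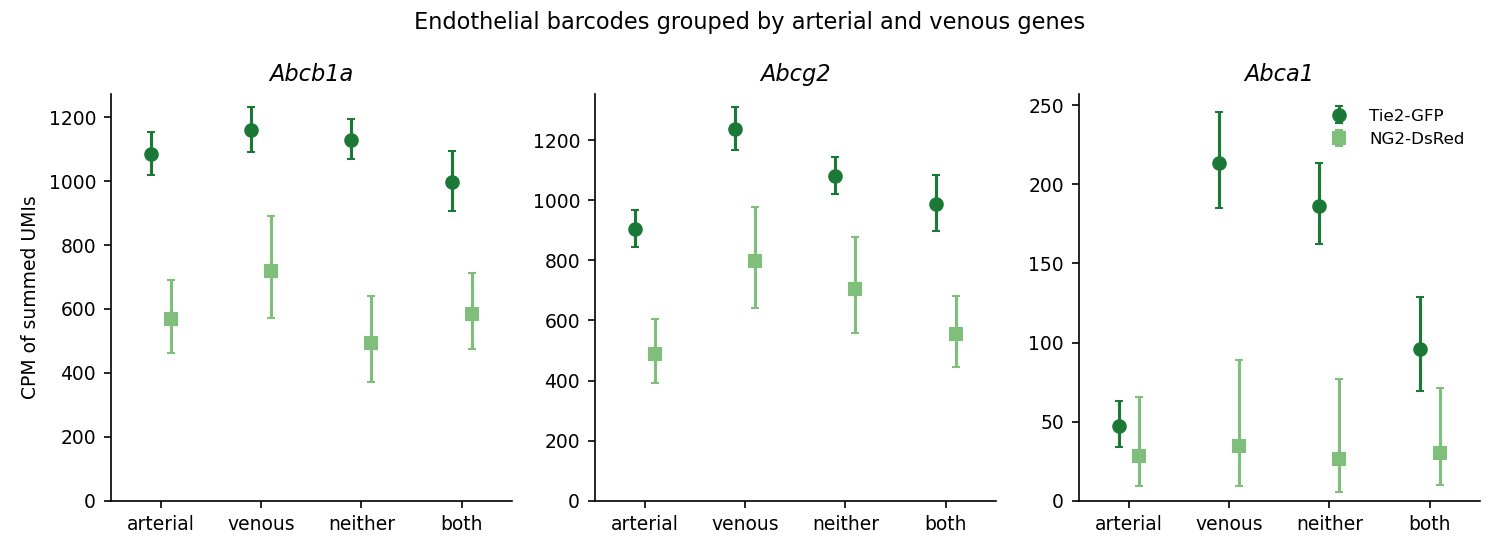
CPM of summed UMIs (y axis, linear from 0) of Abcb1a, Abcg2 and Abca1 in endothelial barcodes grouped by arterial and venous genes, with exact 95% Poisson intervals, for both libraries. Abca1 runs from 47.1 CPM in arterial-leaning to 214 CPM in venous-leaning Tie2-GFP barcodes, while Abcb1a stays between 998 and 1160 CPM across these groups.

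Between the endothelial barcodes of the 2 libraries 10.4% of 7569 genes were 2-fold higher and 10.6% were 2-fold lower in Tie2-GFP, and of 5 transporters with enough UMIs 1, Abca1, was 2-fold higher. Abcb1a was 1.88-fold higher (1.68 to 2.11), Abcg2 1.73-fold (1.55 to 1.94), Abcc4 1.98-fold (1.20 to 3.46) and Abca1 4.84-fold (2.99 to 8.38). The 7 endothelial genes outside the rule summed to 5618 CPM in Tie2-GFP and 3991 CPM in NG2-DsRed endothelial barcodes. The 4 mural rule genes were at 939 CPM in Tie2-GFP and 5029 CPM in NG2-DsRed endothelial barcodes, and the 4 erythroid genes at 2896 and 22.8 CPM. With only endothelial barcodes of at most 1 mural gene (347 and 16) the ratios were 2.01 (1.57 to 2.60) for Abcb1a, 1.39 (1.13 to 1.73) for Abcg2 and 2.90 (1.32 to 7.95) for Abca1, and that of Abcc4 turned to 0.842 (0.418 to 1.98). Among venous-leaning barcodes Abca1 was 6.17-fold higher in Tie2-GFP (2.37 to 22.9), and among arterial-leaning ones 1.67-fold (0.665 to 5.41). Summed heat-shock and immediate-early genes, a sign of dissociation stress, were at 19616 and 17366 CPM in the endothelial barcodes of the libraries and at 2096 CPM in Tie2-GFP intermediate barcodes, and the part of the mural, erythroid and stress genes in these differences was not tested.

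Between the intermediate barcodes of the libraries 7.8% of 4231 genes were 2-fold higher and 9.67% were 2-fold lower in Tie2-GFP. Abca1 was the only transporter with enough UMIs there and was in neither group, at a ratio of 1.33 whose interval (0.958 to 1.88) includes no difference.

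In Tie2-GFP endothelial barcodes with 3 or 4 mural genes Abcb1a stood at 848 CPM (766 to 935) and Abcg2 at 773 CPM (695 to 857), or 0.733 (0.659 to 0.814) and 0.692 (0.619 to 0.772) times the level in those with at most 1. In the NG2-DsRed library Abcg2 was also lower in such barcodes, 549 CPM (477 to 628) against 803 CPM (647 to 985), while Abcb1a was at 603 CPM (528 to 686) and 576 CPM (445 to 733), which overlap. Whether these barcodes hold more than 1 cell was not tested, and no doublet caller was run.

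The other 47 genes of the ABC family summed to 648 CPM in the endothelial barcodes of each library, 1417 CPM in mural, and 658 and 555 CPM in Tie2-GFP and NG2-DsRed intermediate barcodes. In Tie2-GFP endothelial against intermediate barcodes 18 of the 47 had enough UMIs, of which 5 were 2-fold higher and 4 lower, with a median log2 ratio of 0.02 beside 0.22 over all genes tested. In NG2-DsRed endothelial against mural barcodes only 3 of 47 did, of which 0 were higher and 1 was lower, with a median of -0.41 beside -0.01. In NG2-DsRed endothelial against intermediate barcodes 3 did, of which 1 was higher and 0 were lower, with a median of 0.24 beside 0.25. Over all genes 28.6% were higher and 17.7% lower in the Tie2-GFP comparison. These shares were 15.5% and 13.2% in NG2-DsRed against mural barcodes, and 29.7% and 17.1% against intermediate ones. The most abundant of the 47 was Abcc9, the SUR2 subunit of a vascular ATP-sensitive potassium channel and not an exporter. It stood at 731 CPM in mural barcodes, 5.42-fold above the endothelial barcodes of the library (4.18 to 7.10), and at 0 UMIs in intermediate ones. The 4 mural rule genes summed to 5029 CPM in these NG2-DsRed endothelial barcodes, and the part of mural RNA in the ratio of Abcc9 was not tested.

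Among further family members at 50 CPM or more in a class, Abcc5, an exporter of cyclic nucleotides like Abcc4, was higher in Tie2-GFP intermediate (95.9 CPM) than endothelial barcodes (24.2 CPM), 3.97-fold (2.98 to 5.30), opposite to Abcc4. Abca2, a lipid transporter of endolysosomes, was 14.7-fold higher in these intermediate barcodes (8.07 to 28.9) and the peroxisomal importer Abcd3 3.19-fold (2.41 to 4.22). Tap1 and Tap2, the peptide transporter of antigen presentation, were 4.73-fold (2.74 to 8.83) and 2.30-fold (1.71 to 3.16) higher in the endothelial barcodes. Abca3, a phospholipid transporter, was at 57.9 and 37.3 CPM, and Abcf1, a translation factor with no membrane domain, at 88.5 and 113 CPM. Abcg1, which passes cholesterol to lipoproteins alongside Abca1, was below the level at which genes were named, with 45.4 CPM in Tie2-GFP endothelial and 3.04 CPM in intermediate barcodes.

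Of 12 sterol genes that work with Abca1, 10 had enough UMIs in the Tie2-GFP endothelial against intermediate comparison, and 2 were 2-fold higher and 4 lower, with a median log2 ratio of -0.50 beside 0.22 over all genes. Only 5 did in the NG2-DsRed library, of which 3 were higher and 1 was lower, and the median had the opposite sign, 2.11 beside 0.25. Against mural barcodes 3 of 7 were higher and 2 lower, with a median of 0.76 beside -0.01. Over all genes 28.6% were higher and 17.7% lower in the Tie2-GFP comparison, and 29.7% and 17.1% in the NG2-DsRed one. For mural barcodes these shares were 15.5% and 13.2%. Pltp, the phospholipid transfer protein, stood at 1178 CPM in Tie2-GFP endothelial and 3.04 CPM in Tie2-GFP intermediate barcodes, and Scarb1, the HDL receptor SR-BI, at 383 and 12.2 CPM. Apoe, an apolipoprotein that accepts lipid from Abca1, was abundant in both, at 865 and 610 CPM. Npc2, the lysosomal cholesterol carrier, was 2.25-fold (1.97 to 2.56) and clusterin (Clu) 2.19-fold (1.82 to 2.64) higher in Tie2-GFP intermediate barcodes. In the NG2-DsRed intermediate barcodes neither Clu nor Pltp had a UMI. Lrp1, the endocytic receptor for Apoe, was at 10.8 CPM in Tie2-GFP endothelial and 16.0 CPM in Tie2-GFP intermediate barcodes. It was at 430 CPM in the mural barcodes of the NG2-DsRed library.

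Of 19 regulators known to act on these genes, 13 had enough UMIs in Tie2-GFP endothelial against intermediate barcodes. Of these 4 were 2-fold higher and 3 lower in endothelial barcodes. The median log2 ratio was 0.33 beside 0.22 over all genes, of which 28.6% were higher and 17.7% lower. In NG2-DsRed endothelial barcodes 3 of 6 were higher and 2 lower than in intermediate barcodes. The median was 0.79 beside 0.25 over all genes, of which 29.7% were higher and 17.1% lower. Against mural barcodes 2 of 7 were higher and 1 lower. The median was 0.21 beside -0.01 over all genes, of which 15.5% were higher and 13.2% lower. Lef1, the nuclear partner of beta-catenin, stood at 516 CPM in Tie2-GFP and 254 CPM in NG2-DsRed endothelial barcodes and at 0 UMIs in all mural and intermediate ones. Ctnnb1, beta-catenin itself, was at 628 CPM in Tie2-GFP endothelial and 734 CPM in Tie2-GFP intermediate barcodes. It was highest in NG2-DsRed intermediate barcodes, at 1866 CPM. All 19 regulators together summed to 3376 CPM in those barcodes and to 1547 CPM in the endothelial barcodes of that library. In the Tie2-GFP library Nfe2l2 (NRF2) and Nr3c1 (the glucocorticoid receptor) were 3.67-fold (2.98 to 4.57) and 2.82-fold (2.25 to 3.57) higher in the endothelial barcodes. Hif1a and Srebf1, the lipogenic factor SREBP1, were 3.99-fold (3.68 to 4.33) and 7.23-fold (5.47 to 9.67) higher in the intermediate barcodes of that library. Nr1i2 (PXR) had 0 UMIs in all 5 class groups and Nr1i3 (CAR) 1. The liver X receptor gene Nr1h2 was at 78.9 CPM in Tie2-GFP endothelial and 62.4 CPM in intermediate barcodes, and Nr1h3 at 11.6 and 0.761 CPM.

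Of 12 genes of glutathione conjugation, which supplies substrates of Abcc1, 10 had enough UMIs. Of these 3 were 2-fold higher and 4 lower in Tie2-GFP endothelial than in intermediate barcodes. The median log2 ratio was -0.53 beside 0.22 over all genes, of which 28.6% were higher and 17.7% lower. Of the list in NG2-DsRed endothelial barcodes 1 of 6 was higher and 3 were lower than in intermediate barcodes. The median was -0.82 beside 0.25 over all genes, of which 29.7% were higher and 17.1% lower. Against mural barcodes 0 of 4 were higher and 2 lower. The median was -1.01 beside -0.01 over all genes, of which 15.5% were higher and 13.2% lower. Gsta4, a glutathione transferase for lipid aldehydes, was the outstanding one, at 7971 CPM in Tie2-GFP and 9798 CPM in NG2-DsRed intermediate barcodes and at 31.2 and 85.8 CPM in endothelial ones. Gstp1, Gstm5 and Gstm1, further transferases, were 4.07-fold (3.08 to 5.40), 6.46-fold (4.69 to 9.01) and 2.32-fold (1.93 to 2.78) higher in Tie2-GFP intermediate barcodes. Ephx1, the microsomal epoxide hydrolase, was 4.31-fold higher in endothelial barcodes (2.95 to 6.55). Mgst3, a microsomal transferase, was highest in mural barcodes, at 262 CPM.

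Of 7 genes listed as membrane anchors, among them that of the caveolar protein caveolin-1, 6 had enough UMIs. Of these 3 were 2-fold higher and 0 lower in Tie2-GFP endothelial than in intermediate barcodes. The median log2 ratio was 0.77 beside 0.22 over all genes, of which 28.6% were higher and 17.7% lower. For NG2-DsRed endothelial barcodes 3 of 4 were higher and 0 lower than in intermediate barcodes. The median was 1.65 beside 0.25 over all genes, of which 29.7% were higher and 17.1% lower. Against mural barcodes 2 of 5 were higher and 1 lower. The median was 0.67 beside -0.01 over all genes, of which 15.5% were higher and 13.2% lower. Slc9a3r2 (NHERF2) was at 423 CPM in Tie2-GFP endothelial against 9.89 CPM in Tie2-GFP intermediate barcodes. In the same comparison moesin (Msn) and radixin (Rdx) were 11.1-fold (8.65 to 14.4) and 2.12-fold (1.85 to 2.44) higher. Slc9a3r1 (NHERF1) was at 19.5 and 21.3 CPM in these 2 groups, and caveolin-1 (Cav1) at 77.5 and 56.3 CPM. Both were highest in mural barcodes, at 184 CPM for Slc9a3r1 and 129 CPM for Cav1.

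The genes whose levels across the 5 class-by-library groups were most like each transporter were found by the mean absolute difference of centred log2(CPM + 10) values over those 5 groups, among 7083 genes with at least 100 UMIs. For Abcb1a they were Ly6e, a GPI-anchored surface protein (0.18), Cdh5, which is itself a gene of the endothelial rule (0.19), and Slco1a4 (0.20). For Abcg2 they were Cd93 (0.16), the rule gene Pecam1 (0.21) and the transcription factor Fli1 (0.22), and Abcb1a and Abcg2 differed from each other by 0.69. For Abcc4 they were the sphingosine-1-phosphate exporter Spns2 (0.02), the death receptor Tnfrsf10b (0.06) and Rai14 (0.10). Abca1 had no gene as near, with Nav2 (0.30), Ivns1abp (0.31) and Pfkfb3, an activator of glycolysis (0.33), at 122 to 157 CPM in Tie2-GFP endothelial and 146 to 214 CPM in Tie2-GFP intermediate barcodes. The nearest genes of Abcc1 (Mmp15, Rabgap1 and Nucks1) and Abcb1b (Pcbp1, Ube2l3 and Txnl1) only share their flat course, and 82 and 28 UMIs stand behind these 2 members. These values describe 5 groups that share 2 libraries, and genes are not independent of each other.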

How the data were processed

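Stria vascularis cells were measured in 2 pooled libraries. The values deposited by the authors are whole UMI counts, not normalized, in a matrix of genes by barcodes (32285 and 27998 listed genes), and the file headers name Cell Ranger 7.0.0 for Tie2-GFP and software version 3.0.0 for NG2-DsRed. The submitters' processing notes name bcl2fastq 2.20.0.422 and mm10. Whether intronic reads were counted is not given in the sources used here. All deposited barcodes were used, without a doublet caller, and 2 barcodes that met more than 1 class rule were set aside.

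Counts were summed per class in Python 3.11.15 (numpy 2.4.6, scipy 1.17.1, pandas 2.3.3, matplotlib 3.10.9) and given as CPM with exact Poisson intervals, shares with Clopper-Pearson intervals, and ratios with exact conditional binomial intervals, at 95%. Shares at equal depth are exact expectations at 2000 UMIs, and shallower barcodes were left out of them (17 and 2 of the Tie2-GFP endothelial and intermediate barcodes, and 0, 19 and 1 of the NG2-DsRed endothelial, mural and intermediate ones). The 2-fold counts add 0.5 UMIs and need 50 UMIs over both classes. The steps were tested on simulated data.

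With 1 library per line, no test between conditions was made. The members and gene lists were chosen with earlier results of these data known. Genes named beside the members are ABC family genes at 50 CPM or more in a class of at least 20 barcodes, up to 6 genes per list at 100 CPM or more, and the 3 genes nearest to each member. Exceptions, named after their values were seen, are Abcg1, Nr1i2, Nr1i3, Nr1h2, Nr1h3 and 7 endothelial genes. The study's limits, tried as an alternative, are 200 to 6000 genes and 200 to 30000 UMIs for Tie2-GFP, 200 to 5000 genes and 200 to 20000 UMIs for NG2-DsRed, and at most 5% mitochondrial and 40% ribosomal UMIs.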

Additional observations from a re-analysis of the deposited data

Results flagged for a closer look

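Transporter UMIs were also found in barcodes that the comparisons do not use, above the limit that a count of 0 allows. In the 163 Tie2-GFP barcodes of no class, Abcb1a stood at 17.9 CPM, Abcg2 at 34.2, Abcc4 at 29.8 and Abca1 at 64.0 CPM, from 12, 23, 20 and 43 UMIs. In the 21 NG2-DsRed barcodes of no class, Abcb1a stood at 107 CPM and Abcg2 at 61.4 CPM, from 7 and 4 UMIs. In the 2 NG2-DsRed barcodes that met more than 1 class rule, Abcb1a stood at 519 CPM and Abcg2 at 622 CPM, close to the endothelial barcodes of the library.

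Some differences among endothelial barcodes pointed in opposite directions in the libraries, on the log2 scale, and the difference between the libraries was not tested. For Abcc4 the arterial-leaning over venous-leaning ratio was -0.54 in Tie2-GFP and 0.12 in NG2-DsRed, a difference of -0.66. For barcodes with 3 or 4 mural genes over those with at most 1, Abcb1a was at -0.45 and 0.07 (difference -0.51), Abcc1 at 0.01 and -0.75 (0.76) and Abcc4 at 0.08 and -2.16 (2.24). Of these 8 ratios the interval excluded no difference for Abcb1a in Tie2-GFP and for Abcc4 with mural genes in NG2-DsRed.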

How the results depend on the processing

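The limits are those of 2 libraries with no replicate: intervals cover counting error only, 58 endothelial, 97 mural and 23 intermediate barcodes bound the NG2-DsRed values, and Abcb1b and Abcc1 rest on 28 and 82 UMIs over the 5 class groups. No paired analysis was possible because each line is 1 library and no result comes from a test. Counting totals without mitochondrial genes or over the genes in both files moved no result beyond its interval, and neither did the study's limits without the mitochondrial one. A minimum of 20 UMIs or 1 UMI added bears only on the shares of genes past 2-fold, which have no interval. Each such share stayed within a fixed factor of its main value. Weighting barcodes alike moved 3 values: Abcg2 in Tie2-GFP endothelial barcodes to 1113 CPM, Abcc4 in Tie2-GFP intermediate barcodes to 12.3 CPM and the log2 ratio between these classes for Abcc4 to 2.33. The stricter class rule took Abcb1a in mural barcodes to 0. The study's limits moved 10 values of intermediate barcodes, 8 of them to 0 and those of Abca1 in Tie2-GFP to 134 CPM and 20.9% at 2000 UMIs. In 2 cases the direction turned around. Under the study's limits Abca1 in Tie2-GFP endothelial against intermediate barcodes went to a log2 ratio of 0.14, with 6 intermediate barcodes left, and with endothelial barcodes of at most 1 mural gene Abcc4 in Tie2-GFP against NG2-DsRed went to -0.25, with 16 NG2-DsRed barcodes left. Beyond these smaller numbers the cause was not tested.

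With at most 1 mural gene, Tie2-GFP endothelial levels became 1156 CPM for Abcb1a and 1117 CPM for Abcg2, NG2-DsRed ones 803 for Abcg2, 69.8 for Abcc4, 52.4 for Abca1 and 0 for Abcb1b, and the Tie2-GFP over NG2-DsRed log2 ratios 0.48 for Abcg2 and 1.54 for Abca1. With barcodes of more than 1 class kept, Abcg2 in NG2-DsRed against intermediate barcodes moved to 3.53 for endothelial and 0.032 for mural ones, since 12 of its UMIs then entered the intermediate class. With 3 genes in place of 2 for vessel zones the arterial over venous log2 ratio was -3.25 for Abca1 in Tie2-GFP and -1.34 for Abcg2 in NG2-DsRed. With no minimum of UMIs, 25.7% of genes were 2-fold lower in NG2-DsRed endothelial than mural barcodes and 28.7% in Tie2-GFP than NG2-DsRed endothelial barcodes.

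Shares depend on the depth chosen. At 1000 and 4000 UMIs Abcb1a was in 64.7% and 95.6% of Tie2-GFP and 45.0% and 89.5% of NG2-DsRed endothelial barcodes, Abcg2 in 62.1% and 95.8%, and 44.0% and 85.5%, and Abca1 in 13.3% and 36.5% of Tie2-GFP ones. At 4000 UMIs Abcb1a and Abcg2 were together in 92.2% and 79.3%, and Abca1 with Abcb1a in 35.5% and with Abcg2 in 35.7% of Tie2-GFP endothelial barcodes.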
